A study of Mus musculus with 15 samples.

Results

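Car9, Car12, Slc16a1, Slc16a3 and Bsg are 5 genes whose products handle acid at the surface of a cell. They were followed across 15 one-colour Affymetrix arrays of mouse melanocytes, as 5 of the 22180 genes that the arrays measured through a probe set annotated to exactly 1 gene symbol. They were chosen by name for what their products do, with earlier results of these data known. Where a gene had several such probe sets, the one with the highest mean over the 15 arrays stood for it. Only Car9 had a second one.

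The cells were labelled both melan-Ink4a-Arf-1 and melan-a, names usually given to different lines. Which of the lines was used could not be settled from the labels. By the label of an immortalized line from Cdkn2a tm1RDp/tm1RDp mice, all groups would share 1 line that lacks this tumour suppressor locus. All cultures were kept at 37 °C in RPMI medium with 10% serum, 200 nM of the phorbol ester 12-O-tetradecanoylphorbol 13-acetate and 200 pM cholera toxin. Normoxia was an ambient-oxygen incubator at about 21% oxygen, with 10% CO2. The 4 hypoxic groups were held for 24 h in 1% oxygen, 5% CO2 and 94% nitrogen. They were a hypoxia control, a negative control, and cultures labelled HIF1A Si1 and HIF1A Si6 (Si1 and Si6 here), which received siRNA against Hif1a 24 h before hypoxia. What the hypoxia control and the negative control received is not given in the sources used here. Each group held 3 arrays, lettered a, b and c, from biological triplicates. Oxygen and CO2 changed together, so their shares in any difference from normoxia cannot be told apart.

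Cells that live on glycolysis make lactate and protons and must export both. Slc16a3 encodes MCT4, a low-affinity carrier that moves lactate out with a proton, and Slc16a1 encodes MCT1, a higher-affinity carrier that works in either direction. Bsg encodes basigin (CD147), the chaperone that takes both carriers to the plasma membrane. Car9 and Car12 encode carbonic anhydrases IX and XII, whose catalytic domains lie outside the cell, where they turn CO2 and water into bicarbonate and protons. Hif1a encodes the oxygen-regulated subunit of HIF-1, a transcription factor that binds a short core, ACGTG or GCGTG. CA9 is among the best known HIF-1 targets.

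The stretch of 250 bases just before each annotated start site is shown because the members moved unequally when Hif1a was targeted. The sequences are RefSeq's, on assembly GRCm38.p6, and 4 of the 5 genes had an entry. All 4 genes lie on the plus strand, and each sequence is written 5′ to 3′ in lower case with the cores ACGTG and GCGTG (either strand) in capitals.
Car9, chr4:43506776-43507025: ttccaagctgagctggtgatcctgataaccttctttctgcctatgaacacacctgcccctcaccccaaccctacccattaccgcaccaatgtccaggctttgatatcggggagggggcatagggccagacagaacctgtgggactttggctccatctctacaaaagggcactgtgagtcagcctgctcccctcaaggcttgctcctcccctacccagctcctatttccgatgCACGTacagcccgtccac
Slc16a3, chr11:120948817-120949066: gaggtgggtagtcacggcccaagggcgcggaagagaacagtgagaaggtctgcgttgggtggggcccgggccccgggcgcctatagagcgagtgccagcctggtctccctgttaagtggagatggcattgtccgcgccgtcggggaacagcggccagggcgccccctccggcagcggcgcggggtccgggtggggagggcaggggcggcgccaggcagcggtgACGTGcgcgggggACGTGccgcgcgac
Slc16a1, chr3:104638414-104638663: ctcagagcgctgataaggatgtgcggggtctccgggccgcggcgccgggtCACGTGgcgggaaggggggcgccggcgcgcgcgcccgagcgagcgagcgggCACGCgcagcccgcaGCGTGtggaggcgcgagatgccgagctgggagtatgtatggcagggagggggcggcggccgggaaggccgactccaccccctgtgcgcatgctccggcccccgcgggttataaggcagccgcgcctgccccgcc
Car12, chr9:66713436-66713685: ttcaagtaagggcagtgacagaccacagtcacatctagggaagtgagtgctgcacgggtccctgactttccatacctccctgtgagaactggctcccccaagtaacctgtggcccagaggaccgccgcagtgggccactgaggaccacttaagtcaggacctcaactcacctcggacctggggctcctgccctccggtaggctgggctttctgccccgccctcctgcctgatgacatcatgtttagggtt

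The Car9 stretch held 1 ACGTG, on the minus strand, 18 to 14 bases before the start. The Slc16a3 stretch held 2 ACGTG on the plus strand, 27 to 23 and 14 to 10 bases before the start. In both genes the cores sat at the very end of the stretch. The Slc16a1 stretch held the palindrome CACGTG, which reads as ACGTG on each strand, 200 to 195 bases before the start. It also held GCGTG at 149 to 145 bases on the minus strand and at 134 to 130 bases on the plus strand. In Car12 these letters did not occur in the stretch. Of 32851 such stretches of 27025 genes, 16.6% held ACGTG, 28.2% held GCGTG, 38.6% held either and 6.0% held CACGTG. The GC content was 56.4% for Car9, 73.6% for Slc16a3, 76.4% for Slc16a1 and 59.2% for Car12, against a median of 52.4% over all stretches. A match is a run of letters and was not measured as a binding site. Whether the cores have a part in the unequal changes was not tested.

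Array medians ran from 6.52 to 6.61, and arrays of a group correlated at r = 0.9931 to 0.9957 over all probe sets. Arrays of different groups correlated at r = 0.9782 to 0.9931. The processing notes list RMA, which evens out the arrays' distributions, so these values do not measure RNA or array quality. Of 12 melanocyte markers all 12 lay above the median gene in every group. Those of keratinocytes (5 measured) and endothelial cells (5 measured) all lay below it. Of 6 fibroblast markers 3 or 4 lay below it in each group, as did 3 or 4 of 5 leukocyte markers; the highest of each list had a mean of 9.35 (normoxia) and 9.65 (Si1). The 2 measured Schwann cell markers, Mbp and Pmp2, averaged 6.79 to 6.88 per array in normoxia and 7.78 to 8.38 in the hypoxic controls, where both rose; their part in the hypoxia results was not tested. The melanocyte markers themselves moved between the groups, from a mean of 11.6 to 11.7 per array in normoxia to 10.1 to 10.2 in Si1, and their part in the results below was not tested. In such bulk RNA, fewer cells of a type and less RNA per cell cannot be told apart. Hif1a checked the labels: its log2 level was 10.36, 10.30 and 10.35 in normoxia (replicates a, b and c), 10.63, 10.54 and 10.59 in the hypoxia control and 10.68, 10.66 and 10.56 in the negative control. It was 8.61, 8.75 and 8.59 in Si1 and 8.90, 8.91 and 8.98 in Si6, which is 25.3% and 30.7% of the negative control. Both siRNA groups thus lay well below every other array. A second probe set of Hif1a lay below the array medians, at group means of 5.32 to 5.47, and did not pass the test in either siRNA group against the negative control (differences of -0.01 and -0.07; limma over all probe sets, adjusted p = 0.956 and 0.538). Epas1, the gene of HIF-2 alpha, was also lower, by 0.76 ± 0.083 (SE) on the log2 scale with Si1 and by 0.34 ± 0.083 with Si6 (limma, adjusted p = 2.053e-06 and 0.00539). Arnt, the shared partner subunit, differed from the negative control by -0.10 in Si1 (adjusted p = 0.119) and was higher by 0.16 in Si6 (adjusted p = 0.0153).

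Every one of the 5 genes was higher in hypoxia than in normoxia. In the hypoxia control 5 of 5 rose, where 9.87% of all genes tested were called higher, 11.2% lower and 21% in either direction. Their median log2 change was 0.98, against -0.0016 over all genes. Car9 and Slc16a3, 2 of the 5, rose at least 2-fold, as did 0.577% of all genes. In the negative control 5 of 5 rose as well, where 14.6% of genes were called higher. Of all calls in that comparison 48.0% were rises, and 37.0% after each array was centred on its median. Both comparisons use the same normoxic arrays, so they are not independent. When Hif1a was targeted, 4 of the 5 fell below the negative control with each siRNA, where 14.8% of genes were called lower with Si1 and 11.9% with Si6. Slc16a1 did not fall with either.

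**Figure D1:**
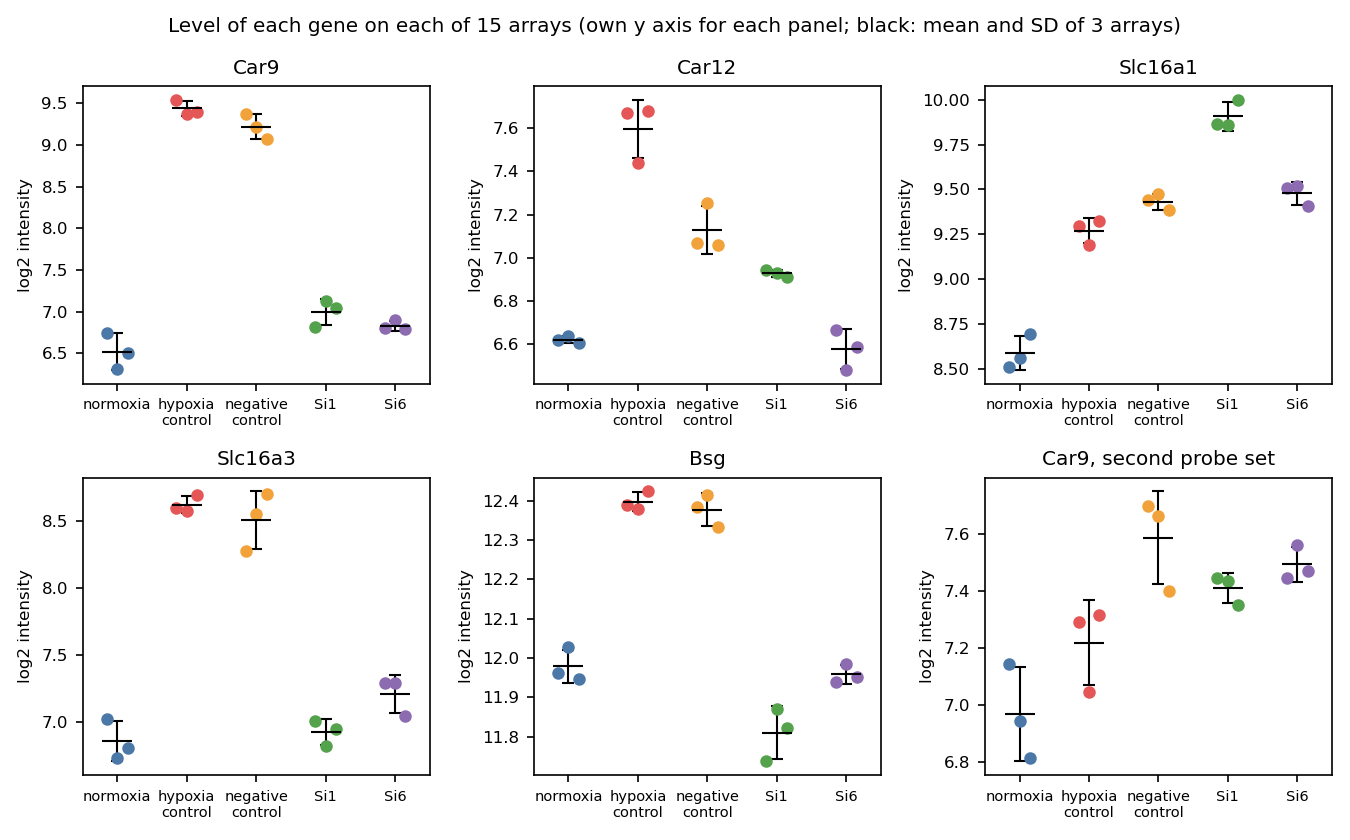
Log2 level of each of the 5 genes (vertical axes, each gene on its own scale) on the 15 arrays, by group. Points are arrays and black bars are the mean and SD of 3 arrays. Car9, Slc16a3 and Bsg return to near the normoxic level in Si1 and Si6, while Slc16a1 stays high and is highest in Si1.

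On the probe set that stood for it, Car9 showed the widest range of the 5. Its log2 level was 6.75, 6.31 and 6.50 in normoxia, 9.55, 9.38 and 9.40 in the hypoxia control, and 9.37, 9.22 and 9.07 in the negative control. In Si1 it was 6.82, 7.13 and 7.04, and in Si6 it was 6.81, 6.90 and 6.79. The 6 arrays of the hypoxic controls were all high, the other 9 all low with no overlap. The hypoxia control was 7.56-fold above normoxia (log2 difference 2.92 ± 0.11, SE, n = 3 and 3; limma, adjusted p = 3.588e-11). That was the rise of rank 8 among all 22180 genes. In the negative control the difference from normoxia was 2.70 ± 0.11.

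With siRNA, Car9 lost most of its hypoxic level. The level left was 21.4% of the negative control in Si1 (log2 difference -2.22 ± 0.11) and 19.1% in Si6 (-2.39 ± 0.11), with limma adjusted p = 3.238e-10 and 4.064e-10. The 2 siRNA groups did not differ by the test (0.17, 95% interval -0.063 to 0.39, adjusted p = 0.317). Car9 did not return fully to its normoxic level. Si1 remained above normoxia by 0.48 ± 0.11 (adjusted p = 0.00183). Si6 remained above it by 0.31 ± 0.11 (adjusted p = 0.0382), a call that was lost without normoxic array b (0.21, adjusted p = 0.186), without normoxic array c or without any 1 of the Si6 arrays.

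The second Car9 probe set did not follow the first. This probe set read 7.14, 6.95 and 6.82 in normoxia, 7.29, 7.05 and 7.32 in the hypoxia control and 7.70, 7.66 and 7.40 in the negative control. In Si1 it was 7.44, 7.43 and 7.35, and in Si6 it was 7.45, 7.56 and 7.47. The hypoxia control overlapped normoxia (0.25 ± 0.095, limma over 23521 probe sets, adjusted p = 0.0835), whereas the negative control was higher (0.62 ± 0.095, adjusted p = 1.116e-04). The negative control also lay above the hypoxia control here, by 0.37 ± 0.095 (adjusted p = 0.0156), while on the first probe set it was lower by 0.22, which did not pass. Neither siRNA group differed from the negative control by the test (-0.18, adjusted p = 0.189, and -0.093, adjusted p = 0.552). With the mean of both probe sets in place of the first, the rise in the hypoxia control was 1.58 and the falls were -1.20 in Si1 and -1.24 in Si6, all 3 still past the test. The rise itself enters the mean by which the first probe set was chosen.

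Car12 moved less than Car9 and separated the groups differently. Its mean over the 15 arrays exceeded that of 51.3% of genes, and the mean of Car9 that of 63.2%. In normoxia both genes (means of 6.62 and 6.52) lay near the array medians. How far RMA compressed their changes at such levels was not tested. Log2 levels of Car12 were 6.62, 6.64 and 6.6 in normoxia, 7.67, 7.44 and 7.68 in the hypoxia control and 7.07, 7.25 and 7.06 in the negative control. In Si1 it was 6.94, 6.93 and 6.91, and in Si6 it was 6.66, 6.48 and 6.59. The hypoxia control stood alone at the top, the negative control came next, and Si6 overlapped normoxia. The rise was 1.97-fold in the hypoxia control (0.98 ± 0.072, limma, adjusted p = 1.329e-07) and 1.42-fold in the negative control (0.51 ± 0.072, adjusted p = 4.810e-05). Of the probe sets that stood for the 5 genes, only that of Car12 differed between the hypoxic controls by the test, by -0.47 ± 0.072 in the negative control (adjusted p = 2.867e-04), where 7.51% of genes were called lower and 15.3% in either direction.

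Car12 was lower with both siRNAs, and nearest to normoxia with Si6. Si6 left 68.3% of the negative control (-0.55 ± 0.072, limma, adjusted p = 2.461e-05) and differed from normoxia by -0.043 (95% interval -0.20 to 0.11, adjusted p = 0.722). Si1 lay above normoxia by 0.31 ± 0.072 (adjusted p = 0.00267) and above Si6 by 0.35 ± 0.072 (adjusted p = 0.0015). The difference of Si1 from the negative control was -0.20 ± 0.072 (adjusted p = 0.0431). That last call was lost without negative control array b (-0.14, adjusted p = 0.202), and also without any 1 of the Si1 arrays. Since the hypoxic controls differed for Car12, the size of its fall depends on which is used: from the hypoxia control it was lower by 0.67 ± 0.072 in Si1 (62.9% left, adjusted p = 1.460e-06) and by 1.02 ± 0.072 in Si6 (49.3% left, adjusted p = 2.661e-08).

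Slc16a3, the MCT4 lactate exporter, followed the shape of the first Car9 probe set at a smaller size. The order of size rests on that probe set. With the mean of both, Car9 changed less than Slc16a3 in the hypoxia control (1.58), in Si1 (-1.20) and in Si6 (-1.24). Its log2 level was 7.02, 6.73 and 6.81 in normoxia, 8.59, 8.58 and 8.69 in the hypoxia control and 8.28, 8.55 and 8.70 in the negative control. In Si1 it was 7.0, 6.82 and 6.95, and in Si6 it was 7.29, 7.29 and 7.04. All 6 hypoxic control arrays lay above all 9 others. Si1 overlapped normoxia, and every Si6 array lay above every normoxic one. The rise was 3.41-fold in the hypoxia control (1.77 ± 0.10, limma, adjusted p = 1.051e-08), rank 36 of all genes, and 1.66 ± 0.10 in the negative control.

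Slc16a3 was lower with both siRNAs. Si1 left 33.3% of the negative control (-1.58 ± 0.10, limma, adjusted p = 9.336e-09) and Si6 left 40.6% (-1.30 ± 0.10, adjusted p = 1.590e-07). Against normoxia, Si1 differed by 0.071 (95% interval -0.15 to 0.29, adjusted p = 0.652) and Si6 by 0.35 ± 0.10 (adjusted p = 0.0163). The means in normoxia (6.85) and Si1 (6.92) lay only a little above the array medians (6.52 to 6.61). How far RMA compressed differences at such levels was not tested. The Si6 call was lost without Si6 array a or b or without normoxic array b or c (0.29 to 0.33). The difference between the siRNAs, -0.28 ± 0.10, did not pass (adjusted p = 0.0552). It passed without Si6 array c (-0.37, adjusted p = 0.0244) and under the settings listed in the closing section. A further probe set annotated to both Csnk1d and Slc16a3 was not used, since its signal cannot be assigned to 1 gene.

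Slc16a1, the MCT1 carrier, rose in hypoxia and rose further with Si1. Across the arrays it read 8.51, 8.56 and 8.70 in normoxia, 9.30, 9.19 and 9.32 in the hypoxia control and 9.44, 9.47 and 9.38 in the negative control. In Si1 it was 9.86, 9.86 and 10.00, and in Si6 it was 9.51, 9.52 and 9.41. Normoxia was lowest, Si1 was highest with no overlap, and Si6 overlapped the negative control. The rise was 1.60-fold in the hypoxia control (0.68 ± 0.063, limma, adjusted p = 1.445e-06) and 1.79-fold in the negative control (0.84 ± 0.063, adjusted p = 5.520e-08).

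The siRNAs differed in what they did to Slc16a1. Si1 lay above the negative control by 0.48 ± 0.063 (1.39-fold, limma, adjusted p = 1.802e-05), where 20.2% of genes were called higher. Si6 differed from it by 0.046 (95% interval -0.090 to 0.18, adjusted p = 0.673). The difference between the siRNAs was 0.43 ± 0.063 (adjusted p = 7.659e-05). Relative to normoxia, Slc16a1 was 2.49-fold higher in Si1 (1.32 ± 0.063) and 1.85-fold higher in Si6 (0.89 ± 0.063), with adjusted p = 1.968e-10 and 4.042e-08. All 6 siRNA arrays lay above the 3 arrays of the hypoxia control.

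Bsg, the chaperone of both carriers, rose least of the 5 in each hypoxic control, and its group SDs ran from 0.024 to 0.067. Its log2 level was 11.96, 12.03 and 11.95 in normoxia, 12.39, 12.38 and 12.43 in the hypoxia control and 12.39, 12.42 and 12.33 in the negative control. In Si1 it was 11.74, 11.87 and 11.82, and in Si6 it was 11.94, 11.99 and 11.95. The hypoxic controls overlapped each other and lay above the rest, Si6 overlapped normoxia, and Si1 lay below it. The rise was 1.34-fold in the hypoxia control (0.42 ± 0.050, limma, adjusted p = 1.729e-05) and 1.32-fold in the negative control (0.40 ± 0.050, adjusted p = 1.314e-05).

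Bsg was not above normoxia in either siRNA group. Si1 left 67.4% of the negative control (-0.57 ± 0.050, limma, adjusted p = 2.097e-07) and Si6 left 74.8% (-0.42 ± 0.050, adjusted p = 9.340e-06). Si6 differed from normoxia by -0.020 (95% interval -0.13 to 0.086, adjusted p = 0.818), while Si1 was below normoxia by 0.17 ± 0.050 (adjusted p = 0.0126). Si1 was also below Si6 by 0.15 ± 0.050 (adjusted p = 0.0354). The call against normoxia was lost without Si1 array a or normoxic array b (-0.13 and -0.15). The call against Si6 was lost without Si1 array a (-0.11) or c and without any 1 of the Si6 arrays.

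**Figure D2:**
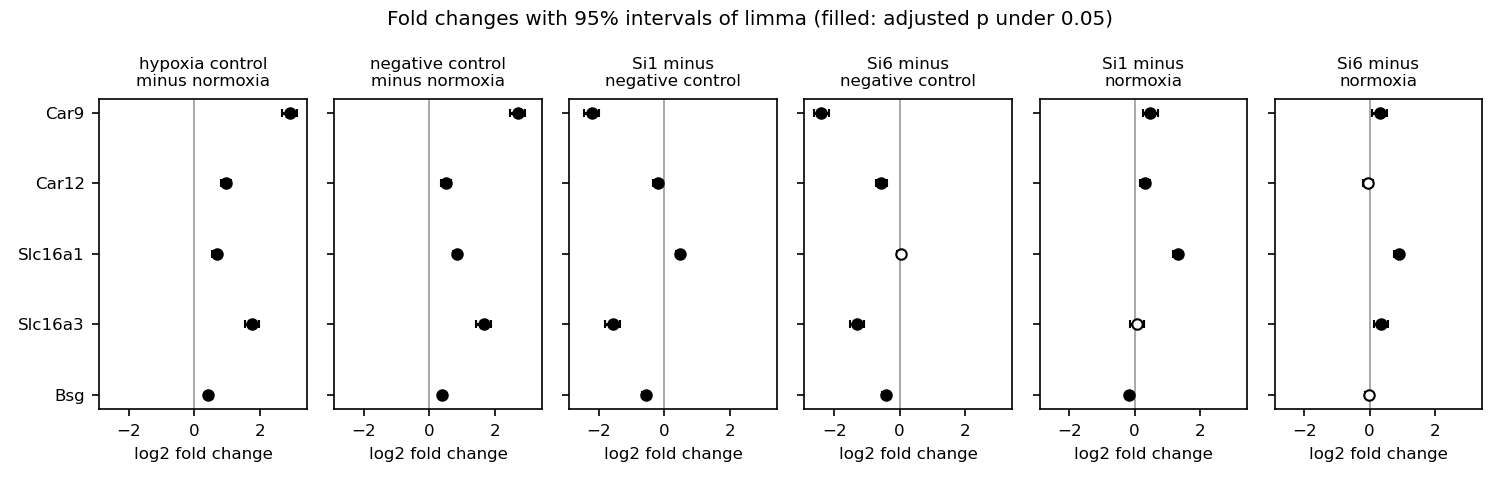
Log2 fold change of each gene (rows) in 6 comparisons (panels), with the 95% interval of limma. Filled points have an adjusted p under 0.05. All 5 genes lie right of 0 in both hypoxic controls. Against the negative control, Car9 and Slc16a3 lie far left with either siRNA, and Slc16a1 lies right with Si1 and at 0.05 with Si6.

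The order of the 5 group means differed between the genes. For Car9 it ran hypoxia control, negative control, Si1, Si6 and normoxia. Its hypoxic controls did not differ by the test (0.22, 95% interval -0.0083 to 0.45), nor did its siRNA groups. For Car12 the order was hypoxia control, negative control, Si1, normoxia and Si6, and only normoxia and Si6 were neighbours that did not differ by the test. For Slc16a3 it was hypoxia control, negative control, Si6, Si1 and normoxia, and only the step from the negative control to Si6 passed. For Bsg it was hypoxia control, negative control, normoxia, Si6 and Si1, where the hypoxic controls did not differ by the test and neither did normoxia and Si6. Slc16a1 was the one gene with the siRNA groups on top: Si1, Si6, negative control, hypoxia control, normoxia. Its middle steps, Si6 to negative control (0.046) and negative control to hypoxia control (0.16, adjusted p = 0.112), did not pass.

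Against normoxia itself, 4 of the 5 genes were called in Si1, 3 higher and 1 lower, where 21.7% of genes were called higher and 17.4% lower (39.1% in all). In Si6 3 of the 5 were higher and 0 lower, where 17% of genes were higher and 13.1% lower (30.2% in all). Between the siRNA groups 3 of the 5 were called (Car12, Slc16a1 and Bsg), against 27.9% of all genes. The melanocyte markers also differed there, with 12 of 12 lower in Si1 than in Si6 (median -0.62).

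The pairs of related genes changed unequally on the same arrays, as a difference of log2 values taken within each array shows. The difference Slc16a3 minus Slc16a1 rose by 1.09 ± 0.13 (SE) from normoxia to the hypoxia control. It fell by 2.06 ± 0.15 from the negative control to Si1 and by 1.35 ± 0.15 to Si6. In each of the 3 comparisons the arrays did not overlap, and the exact two-sided permutation p was 0.1, the smallest that 3 against 3 arrays allow. At this size the permutation test cannot give a lower p, so no conclusion was drawn from it. On these arrays the signal of Slc16a3 rose relative to that of Slc16a1 from normoxia to the hypoxia control. Relative to Slc16a1 it was lower in both siRNA groups than in the negative control. The carrier proteins and their transport were not measured. Car9 minus Car12 rose by 1.94 ± 0.15 in the hypoxia control, and fell by 2.02 ± 0.14 in Si1 and 1.84 ± 0.13 in Si6, again with no overlap and exact p = 0.1 each. With the mean of both Car9 probe sets those 3 changes were 0.61, -1.0 and -0.69.

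**Figure D3:**
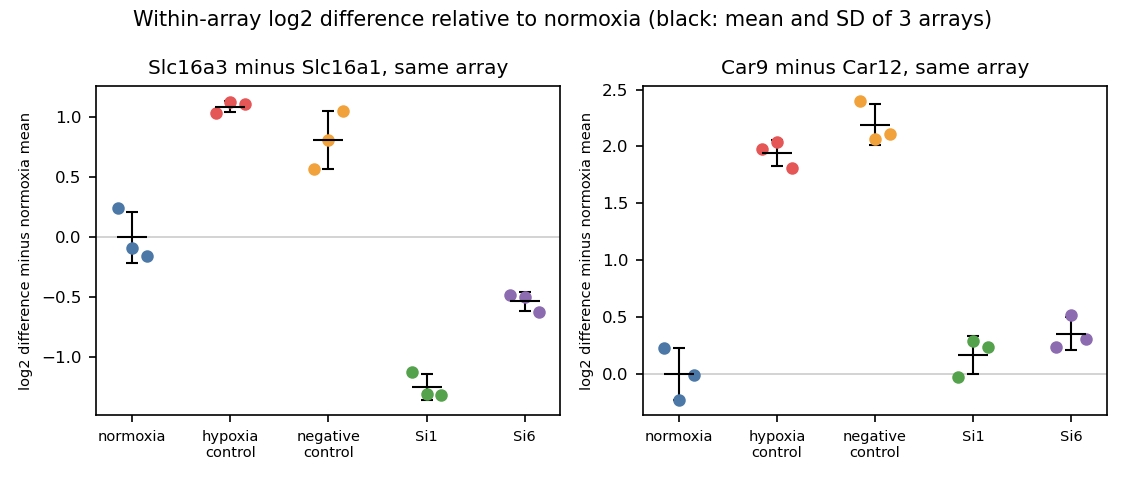
Difference of the log2 values of a pair of genes on the same array (vertical axis, with the normoxic mean set to 0), by group. Points are arrays and black bars are the mean and SD of 3 arrays. Slc16a3 minus Slc16a1 is above normoxia in both hypoxic controls and below it in Si1 and Si6, and Car9 minus Car12 is above normoxia by about 2 log2 units in both hypoxic controls.

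Most other genes of acid and lactate handling did not pass the test in hypoxia. Of 73 listed genes in 7 groups, 66 were measured, and in the hypoxia control 5 rose and 8 fell, or 19.7%, close to the 21% of all genes. Their median log2 change was -0.0036, against -0.0016 over all genes. The gene of the lists that rose most was Ldha, which encodes the lactate dehydrogenase subunit that favours lactate. Log2 levels were 9.10, 9.13 and 9.21 in normoxia and 10.08, 10.06 and 10.16 in the hypoxia control, a rise of 0.95 ± 0.066 (limma, adjusted p = 7.249e-08) with no overlap. With Si1 it fell by 0.70 ± 0.066 (adjusted p = 4.549e-07) and with Si6 by 0.45 ± 0.066 (adjusted p = 7.819e-05). The other 3 subunit genes, Ldhb, Ldhc and Ldhd, did not pass in hypoxia (-0.018 to 0.085).

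Among the other carbonic anhydrases and related proteins, 12 of 14 were measured, and 1 rose and 2 fell in the hypoxia control (25%, close to the 21% of all genes; median 0.011). Mitochondrial Car5b rose by 0.29 ± 0.060 (limma, adjusted p = 0.00273). Secreted Car6 fell by 0.28 ± 0.073 (adjusted p = 0.0119), and cytosolic Car13 fell by 0.24 ± 0.054 (adjusted p = 0.00406). No change came near the size of that in Car9 or Car12. With siRNA, Car5b and Car6 moved more than in hypoxia.

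Car5b went opposite ways with the siRNAs. It read 7.74, 7.82 and 7.89 in the negative control, 8.67, 8.70 and 8.77 in Si1 and 6.77, 6.86 and 6.79 in Si6. It was higher by 0.90 ± 0.060 with Si1 (limma, adjusted p = 1.259e-08) and lower by 1.02 ± 0.060 with Si6 (adjusted p = 7.219e-09), with no overlap on either side. Car6 fell with both, by 1.81 ± 0.073 with Si1 (adjusted p = 5.105e-11) and by 0.47 ± 0.073 with Si6 (adjusted p = 1.140e-04). Its deposited value was the same, 10.32, on all 3 negative control arrays, as happened for 45 of 41345 probe sets in that group. Car11 fell by 0.25 with Si1 (adjusted p = 0.0212) and by 0.26 with Si6 (adjusted p = 0.0233). Car15 rose by 0.46 ± 0.076 in Si1 (adjusted p = 1.457e-04) and differed by 0.013 in Si6 (adjusted p = 0.933). Car13 rose by 0.29 ± 0.054 in Si6 (adjusted p = 5.382e-04), against 0.14 in Si1 (adjusted p = 0.0606).

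Of the other monocarboxylate carriers of the SLC16 and SLC5 families, 13 of 14 were measured. In the hypoxia control 0 passed limma's test (range -0.085 to 0.17), where 21% of all genes were called. At an unadjusted p under 0.05, 1 was higher and 0 lower. In Si1 4 of the 13 rose and 1 fell (38.5%, against 34.9% of all genes called), and in Si6 2 rose and 1 fell (23.1%, against 28.9%). Slc16a14 rose with both (0.48 ± 0.075 and 0.23 ± 0.075; limma, adjusted p = 9.041e-05 and 0.0308). Of the relatives of Bsg, Nptn, which encodes neuroplastin, rose by 0.19 ± 0.049 in hypoxia (adjusted p = 0.0123). Emb, which encodes embigin, another chaperone of monocarboxylate carriers, did not pass (0.057). Neither passed with either siRNA.

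The bicarbonate exchangers that passed in hypoxia fell. Of 14 measured bicarbonate and anion exchangers 4 fell and 0 rose in the hypoxia control by limma's adjusted p (28.6%, where 21% of all genes were called and 11.2% were called lower); at an unadjusted p under 0.05, 4 fell and 0 rose. The largest fall was in Slc4a8, the sodium-driven chloride-bicarbonate exchanger, from 8.93, 8.84 and 8.99 in normoxia to 8.24, 8.13 and 7.99 (-0.80 ± 0.083, limma, adjusted p = 4.376e-06). Slc26a6 fell by 0.35 ± 0.087, Slc26a11 by 0.26 ± 0.057 and Slc4a3 by 0.18 ± 0.057 (adjusted p = 0.00792, 0.0039 and 0.032). In Si1 Slc4a8 was higher than in the negative control by 1.10 ± 0.083 (adjusted p = 4.287e-08), against 0.22 in Si6 (adjusted p = 0.0656). Slc4a11 was higher by 1.67 ± 0.083 in Si1 (adjusted p = 4.351e-10), against 0.19 in Si6 (adjusted p = 0.113). Slc26a6 rose with both, by 0.57 ± 0.087 and 0.37 ± 0.087 (adjusted p = 6.397e-05 and 0.0041). These 3 were the largest changes of this list in the mean of both siRNAs.

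Of 13 measured sodium-proton exchangers and their cofactors 1 rose and 2 fell in the hypoxia control (23.1%, close to the 21% of all genes). Slc9a8 fell by 0.32 ± 0.055 and the scaffold gene Slc9a3r2 by 0.30 ± 0.056, while Slc9b1 rose by 0.25 ± 0.072 (limma, adjusted p = 5.394e-04, 9.847e-04 and 0.0211). With siRNA, Slc9a8 was higher in Si6 by 0.41 ± 0.055 (adjusted p = 3.382e-05) but not by the test in Si1 (0.023). The scaffold gene Slc9a3r1 was higher in Si1 by 0.55 ± 0.055 and lower in Si6 by 0.16 ± 0.055 (adjusted p = 9.318e-07 and 0.0449). Among 8 acid-sensing receptors and channels only Asic3 passed in hypoxia (0.23 ± 0.070, limma, adjusted p = 0.026). That was 12.5% of the list, against 21% of all genes. Over the 66 genes together, 14 rose and 6 fell in Si1 (30.3%, against 34.9% of all genes), and 7 rose and 8 fell in Si6 (22.7%, against 28.9%).

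**Figure D4:**
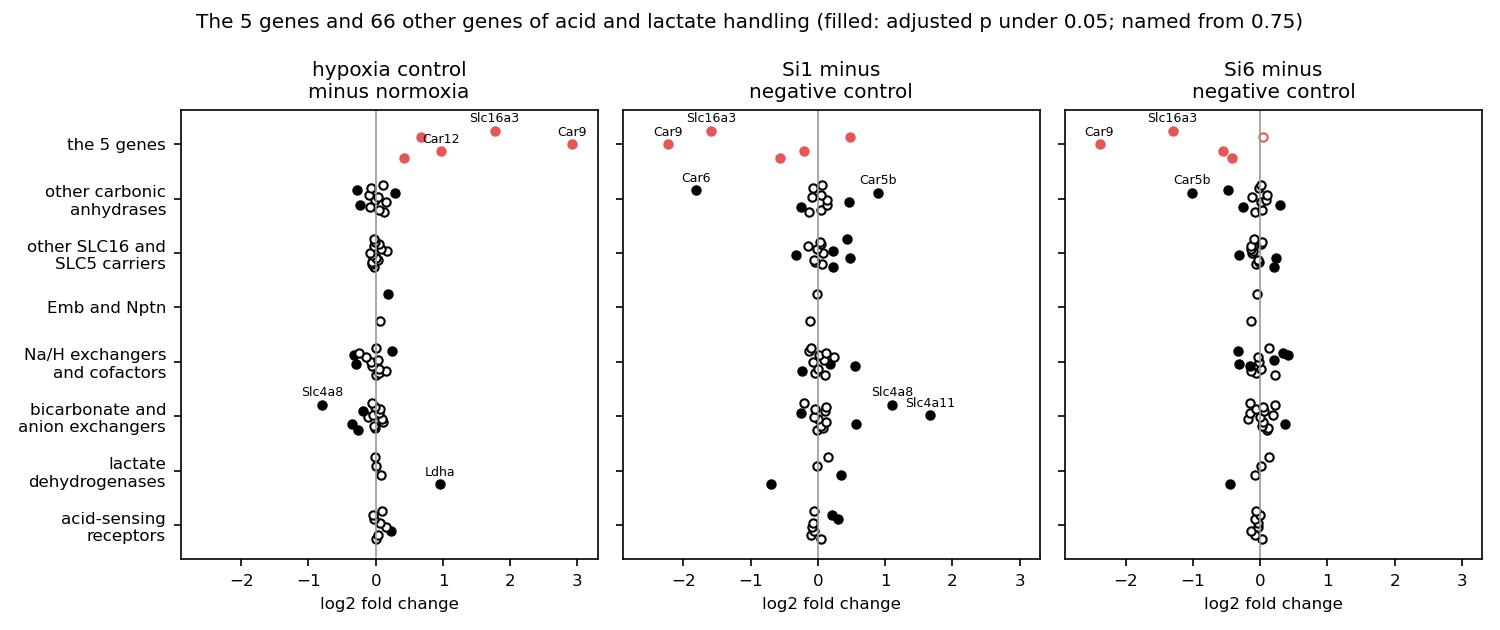
Log2 fold change of the 5 genes (red) and 66 other genes of acid and lactate handling (black), by gene group (rows), in 3 comparisons (panels). Filled points have an adjusted p under 0.05 in limma. In hypoxia Ldha and the 5 genes stand to the right while most other genes lie near 0; Car5b lies on opposite sides of 0 in Si1 and Si6.

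The genes nearest in pattern were sought by the root mean square difference of the 15 array values, each gene centred on its own mean. This was done for the 4 members whose group means span at least 1 log2 unit, which Bsg does not. Nearest to Car9 were Adm, which encodes adrenomedullin (0.21 log2 units), Vldlr, a lipoprotein receptor (0.24), and Plekha2 (0.25). Adm rose by 2.63 ± 0.11 in the hypoxia control and fell by 2.12 ± 0.11 and 2.19 ± 0.11 with Si1 and Si6. Nearest to Slc16a3 were Gys1, muscle glycogen synthase (0.16), Egln1, the oxygen-sensing prolyl hydroxylase PHD2 (0.16), and 2500002B13Rik (0.17). Egln1 rose by 1.77 ± 0.059 in the hypoxia control, and fell by 1.77 ± 0.059 and 1.59 ± 0.059 with the siRNAs.

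Nearest to Slc16a1 were S100a10 (0.10), Hsp90aa1, an HSP90 chaperone (0.11), and Nt5dc2 (0.11). Hsp90aa1 rose by 0.48 ± 0.049 in the hypoxia control and by a further 0.43 ± 0.049 in Si1 over the negative control, against 0.088 in Si6 (limma, adjusted p = 3.544e-06, 3.348e-06 and 0.222). Nearest to Car12 were Sh2d4b, Igsf6 and Prkab2, a subunit of AMP-activated kinase (0.15 each). By Pearson correlation over the same arrays, which ignores the size of a change, other genes came first in 11 of 12 places. Only Hsp90aa1, for Slc16a1, was named by both measures. The points of these comparisons share the same arrays and groups, and the lists describe likeness only. Since the genes were chosen by their values on these arrays, like sizes of change and their tests follow from the choice.

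**Figure D5:**
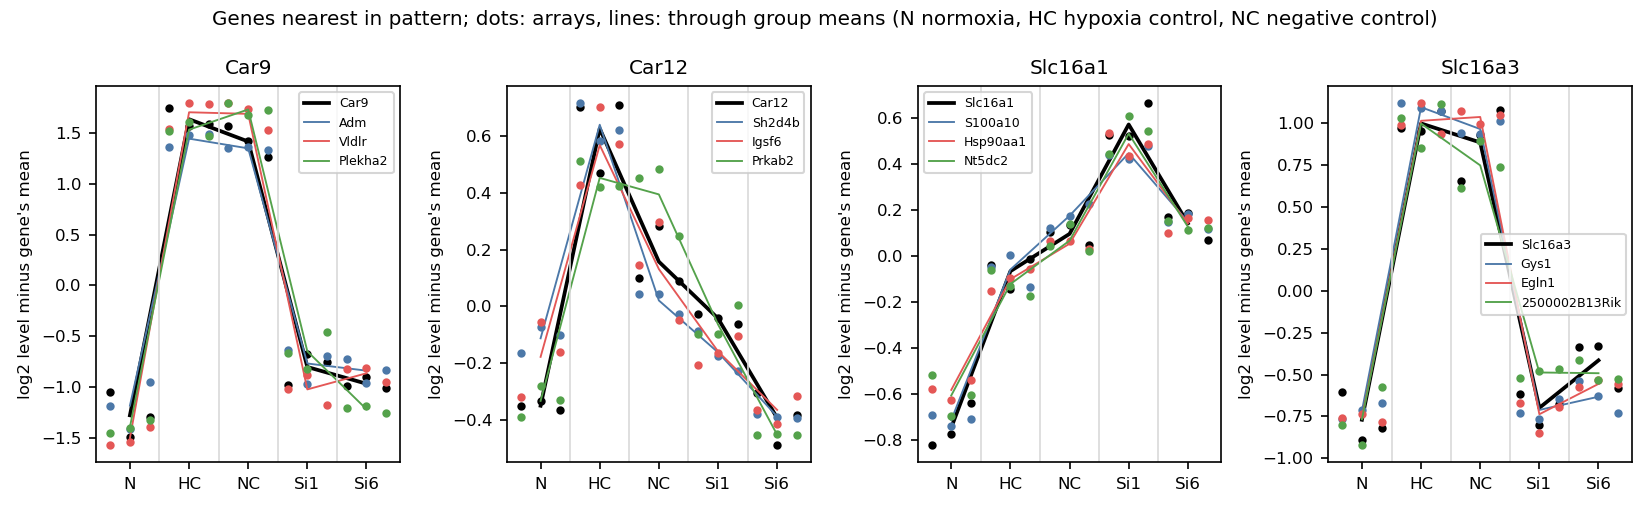
Log2 level minus the gene's own mean over 15 arrays, for 4 of the genes (black) and the 3 genes nearest to each in pattern (coloured), by group. Points are arrays and lines pass through the group means. The Car9 and Slc16a3 panels are high in both hypoxic controls and low elsewhere, and the Slc16a1 panel peaks in Si1.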

How the data were processed

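Biotin-labelled RNA of 15 cultures, 3 in each of 5 groups, was hybridised to one-colour Affymetrix arrays, per the labels' protocols. The authors deposited 1 table of log2 intensities for 41345 probe sets. The submitters' processing notes list RMA and Partek with no version or order. RMA subtracts background, equalises the arrays' distributions by quantiles and condenses probes to probe sets. No source used here gives a genome build or a filter. RMA values hide a shift of all genes together and compress changes of dim genes.

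Groups came from the sample labels. The platform annotation gave 23521 probe sets 1 gene symbol, 1814 several and 16010 none; those with 1 were kept, and the probe set with the highest mean stood for each of 22180 genes. The 5 genes, the pathway lists and the markers were chosen with earlier results of these data known. Named genes are the 5 with all their probe sets, Hif1a, Epas1 and Arnt, up to 4 largest called changes per pathway list in hypoxia and in the mean of both siRNAs, and the 3 genes nearest in pattern; genes named beyond these were chosen after their values were seen.

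A mean for each of the 5 groups was fitted to the 15 arrays on the deposited log2 scale with limma 3.58.1 (R 4.3.3, eBayes, no covariates), and 11 two-sided contrasts were taken. P-values were Benjamini-Hochberg adjusted over all genes of a comparison, and called means an adjusted p under 0.05. Errors are standard errors unless named. The scripts were tested on simulated data. The p-values measure the spread between these cultures, and the number of arrays (3 a group) limits precision. Alternatives were quantile normalization, median centring, a filter on the lowest 25% of genes, trended and robust eBayes, a fit of the compared groups alone, averaging the probe sets of each gene, a replicate block and leaving out each array.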

Additional observations from a re-analysis of the deposited data

Results flagged for a closer look

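Results are listed here where Si1 and Si6, which target the same transcript, differed from each other by limma's test of that difference (adjusted p under 0.05). Of 31 genes compared, the 5 members and 26 named list genes, 18 differed. Since many of the list genes were named for large changes that use the same siRNA arrays, this count is not set against the share over all genes. Values are Si1 minus Si6 on the log2 scale. The target itself was lower in Si1 (Hif1a -0.28), and so was the related subunit Epas1 (-0.43). The partner subunit Arnt was not among the 31 and was lower in Si1 too (-0.25, limma over all probe sets, adjusted p = 5.018e-04). Among the members, Car12 differed by 0.35, Slc16a1 by 0.43 and Bsg by -0.15; the call of Bsg rests on single arrays.

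The widest difference was in Car5b (1.91), followed by Slc4a11 (1.48) and Car6 (-1.33). Of the other carbonic anhydrases, Car15 differed by 0.45 and Car13 by -0.15. Of the bicarbonate exchangers, Slc4a8 differed by 0.88. Among sodium-proton exchangers and their scaffolds, Slc9a3r1 differed by 0.70, Slc9a3r2 by 0.48, Slc9b1 by 0.20 and Slc9a8 by -0.38. The carrier Slc16a14 differed by 0.25. The lactate dehydrogenase genes went opposite ways, with Ldhb at 0.42 and Ldha at -0.26. The melanocyte markers were lower in Si1 as well (12 of 12), and their part in these differences was not tested.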

How the results depend on the processing

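Over the members and comparisons, 730 alternatives were computed: 692 kept the call or its absence, 31 lost the call and 7 gained it. In 0 of them did a called difference change sign. Some of the 692 did change sign where neither value passed. For Car9 between the hypoxic controls, for example, the difference was -0.22 and the alternatives reached 0.074. The fall of Car12 in Si1 (-0.20) lost its call with trended and robust eBayes, with the compared groups alone and with the replicate block (adjusted p = 0.0543, 0.0554 and 0.0606), and ranged from -0.23 to -0.14 when single arrays were left out. The difference of Slc16a3 between Si1 and Si6 passed after quantile normalization (-0.31), after median centring (-0.32), and with the filter on dim genes, trended eBayes or the compared groups alone (-0.28 each); leaving out arrays gave -0.37 to -0.23. For Bsg, Si1 against Si6 lost its call after quantile normalization (-0.13) and with the compared groups alone (-0.15), with -0.18 to -0.11 without single arrays. Bsg in Si1 against normoxia lost it with the compared groups alone (-0.17), with -0.20 to -0.13. Car9 in Si6 against normoxia lost it with the compared groups alone (0.31), with 0.21 to 0.43. Slc16a3 in Si6 against normoxia gave 0.29 to 0.44 without single arrays. Slc16a1 passed between the hypoxic controls after quantile normalization (0.17), and its rise in Si6 over the hypoxia control (0.21) lost its call there (0.13) and without Si6 array a or b or hypoxia control array b, with 0.17 to 0.24 without single arrays. The mean of both Car9 probe sets moved Car9 minus Car12 to 0.61 in hypoxia, -1.0 in Si1 and -0.69 in Si6. The cause of each change was not tested.

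The letters a, b and c left no clear sign of pairing: 3 of 30 same-letter correlations exceeded 0.1 (range -0.22 to 0.21), and 4 of 15 arrays matched their own letter best. The median was -0.0019 for same letters and 0.0024 for different letters. Such correlations cannot exclude that a letter names a shared batch. With the replicate block, 4460 genes passed in the hypoxia control against normoxia, where 4664 did without it, and of the members' calls only that of Car12 in Si1 (-0.20) was lost.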
